A study of Drosophila ananassae with 54 samples.

Results

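The tubule cold response of FastBKK minus that of SlowBKK was measured in adult males of the fruit fly Drosophila ananassae with 12 of the 54 RNA-seq libraries, 3 libraries in each of 4 groups. The groups were Malpighian tubules of FastBKK and of SlowBKK, each after 4 days at 10 °C and 90 min of recovery, or after 4 days at the 22 °C rearing temperature. Treatment began on the day after the adults left the pupa, and no recovery is listed for the control flies. FastBKK and SlowBKK are both Bangkok material, labelled tolerant and sensitive to cold. Each was a pool of 4 isofemale lines, and each tubule library was made from 60 males, so the comparison is between 2 pools and not between 2 phenotypes at large. KATH, a tolerant pool of 3 isofemale lines from Kathmandu, was used beside them with its 6 tubule libraries. The question was which genes changed with cold by a different amount in the tolerant and in the sensitive Bangkok pool. The quantity tested is the log2 fold change of FastBKK (cold minus control) minus the log2 fold change of SlowBKK, so a negative value means that a gene rose less, or fell more, in FastBKK.

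Malpighian tubules are the main excretory organs of insects. Their epithelium pumps ions into the lumen with a proton ATPase, water follows, and the hindgut takes back part of the fluid. In chill-susceptible insects cold slows this transport and ion balance in the haemolymph is lost, which is why the tubule is studied in cold tolerance. The deposited table gives each gene a FlyBase identifier, a GF symbol, a scaffold and a length. None of these identifiers matched the RefSeq gene table (0 matches), so gene functions are not given, and the tissue was not checked against named marker genes. In RNA from pooled whole organs, a change in the number of cells of a type and a change in RNA per cell cannot be told apart.

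The 12 libraries held 32.9 to 40.0 M counts (median 37.0 M). Replicates were closer to each other in SlowBKK than in FastBKK. The correlation of log2 CPM (counts scaled to a common library size) across genes between replicates was 0.971 to 0.976 in the SlowBKK cold group and 0.979 to 0.984 in its control group, against 0.938 to 0.955 and 0.949 to 0.974 in FastBKK. Transcripts of neighbouring tissue were followed with 283 genes abundant in the hindgut and near absent from tubules, and 795 abundant in the body and near absent from both organs. The summed level of the hindgut genes was 64.8 to 96.2 CPM in SlowBKK controls and 515 to 545 CPM in SlowBKK cold libraries. It was 78.1 to 931 CPM in FastBKK controls and 132 to 1876 CPM in FastBKK cold libraries, where replicate 1 was highest. The body genes summed to between 51.3 and 644 CPM in 11 of these 12 libraries and to 1874 CPM in FastBKK cold replicate 3. Among the KATH tubule libraries, control replicate 1 held the highest body-gene sum of all, 3063 CPM, and without it 68 genes were again called for FastBKK minus SlowBKK, 62 of them shared. None of the genes called below is on either list (0 of 68). Both lists require a median under 1 CPM in tubules, which few tested genes could meet, so nothing is read from this count. Of the called genes, 4 had a mean hindgut level at least 10 times their tubule mean.

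The absolute cold response was larger in the cold-sensitive pool for 49 of the 68 genes that differed (72.1%), beside 56.4% of all tested genes. These responses make up the tested difference, so this is a description and not a separate test. GF16961 rose in the cold in SlowBKK by 2.95 on the log2 scale, against 0.08 in FastBKK. GF18129 changed by -3.69 in SlowBKK, a fall, while its FastBKK value of -0.66 did not pass the test (adjusted p = 0.0787). GF22842 rose by test in FastBKK alone, by 1.29, with -0.10 in SlowBKK. GF10800 was found at 0 counts in every FastBKK cold library and rose in SlowBKK.

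In all, 68 of 10132 tested genes were called, which is 0.671% of them. These had an adjusted p under 0.05 in edgeR's quasi-likelihood test with Benjamini-Hochberg adjustment. The difference was positive for 23 genes (0.227% of those tested) and negative for 45 (0.444%). The smallest adjusted p was 0.00659, and 1527 genes (15.1%) had an unadjusted p under 0.05, 590 of them positive and 937 negative. The last genes called (GF18908, GF14974 and GF24303) had an adjusted p of 0.0477, and the first not called, GF18111, had 0.0502. Of the 68 differences, 40 were larger than 1 on the log2 scale. When a trend with gene length was removed, a choice made after seeing the data, 154 genes were called, 74 positive and 80 negative, in place of 23 and 45. DESeq2 called 413 genes, 212 positive and 201 negative. With only the FastBKK and SlowBKK libraries 13 genes were called, 9 positive and 4 negative. With replicate number as a block 4 were called, 4 positive and 0 negative. The excess of negative differences thus depended on the fit.

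**Figure D1:**
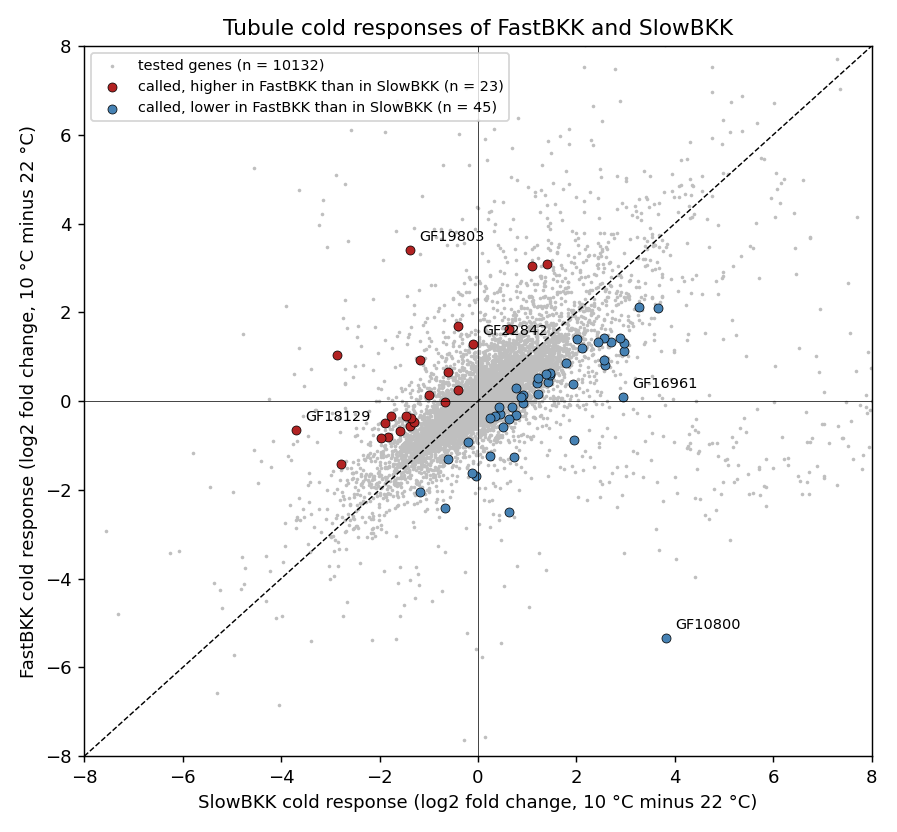
Tubule cold response of each tested gene in SlowBKK (x axis) and FastBKK (y axis), as log2 fold change of 10 °C over 22 °C. Coloured points are the 68 called genes, 23 above and 45 below the dashed line of equal response, and 22 tested genes lie outside the axis limits of 8.

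The called genes were sorted by what each pool did in the cold. As background, 46.4% of tested genes were called for a cold response in SlowBKK (24.2% higher and 22.2% lower in the cold) and 41.4% in FastBKK (20.2% and 21.3%). Of the 68 genes, 60 were called in SlowBKK and 51 in FastBKK. Since these responses make up the tested difference, the counts describe the called genes and are not a separate test. A first and largest set of 30 genes rose in SlowBKK, 20 of them also in FastBKK but by less and 10 in SlowBKK alone. A second set of 15 genes fell in SlowBKK, 8 also in FastBKK but by less and 7 in SlowBKK alone. In 14 genes the response was larger in FastBKK, or called in FastBKK alone, and of these 6 rose and 8 fell. The last 9 genes were called in both pools with opposite signs, out of 15 such genes among all those tested.

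The absolute response was larger in SlowBKK for 49 of the 68 called genes (72.1%) and for 56.4% of all tested genes. Among the 3269 tested genes that passed in both pools with 1 sign, it was larger in SlowBKK for 2021 (61.8%). The median absolute response over all tested genes was 0.51 in SlowBKK and 0.47 in FastBKK. Over the called genes it was 1.32 in SlowBKK and 0.81 in FastBKK. These are descriptions, since the responses make up the tested difference.

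In the set of 30 genes that rose more in SlowBKK, the median response was 1.86 on the log2 scale in SlowBKK (range 0.44 to 3.66) and 0.60 in FastBKK (range -0.87 to 2.11). The clearest member was GF16961 (FBgn0093980, scaffold_13340, 1150 bases). Its level in the control libraries was 8.92, 8.74 and 13.5 CPM in FastBKK and 12.3, 9.33 and 8.02 CPM in SlowBKK. After the cold it was 7.88, 15.6 and 9.52 CPM in FastBKK and 102, 61.2 and 65.9 CPM in SlowBKK. The pools thus started at one level, and the SlowBKK cold libraries stood apart from all the others. The difference of responses was -2.87 ± 0.37 (log2 ± SE, 3 libraries a group, edgeR adjusted p = 0.00716), and the gene was called in each of the 12 fits that left out 1 library.

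GF24952 behaved in the same manner with less change. It stood at 52.5, 57.6 and 51.2 CPM in SlowBKK controls and at 100.1, 105 and 98.0 CPM in the cold. In FastBKK the values were 53.2, 52.4 and 55.6 CPM at 22 °C and 63.0, 46.7 and 45.8 CPM after the cold. No SlowBKK cold library overlapped any other library of the 4 groups, and the difference of responses was -0.96 ± 0.15 (edgeR adjusted p = 0.0242). GF24008 also rose by test in SlowBKK alone, from 90.2, 87.9 and 80.3 to 178, 164 and 145 CPM. Its FastBKK libraries held 94.9, 112 and 108 CPM at 22 °C and 128, 109 and 113 CPM after the cold, 2 overlapping groups. GF11892 rose in SlowBKK as well, from 5.78, 5.40 and 6.06 to 26.3, 21.9 and 17.9 CPM. In its FastBKK cold libraries, at 16.1, 8.71 and 9.73 CPM, replicate 1 was the highest, and the groups overlapped.

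Other genes of this set rose in both pools. GF24014 went from 57.0, 60.0 and 43.9 CPM to 179.9, 119 and 103 CPM in FastBKK. In SlowBKK it went from 75.3, 69.5 and 80.5 CPM to 549.5, 464 and 458 CPM. Cold and control libraries were apart in both pools, and every SlowBKK cold library was above every FastBKK one, with a difference of responses of -1.39 ± 0.24 (edgeR adjusted p = 0.0263). GF16872 rose from 10.2, 10.4 and 11.3 to 123, 143 and 136 CPM in SlowBKK. In FastBKK it rose from 10.9, 12.4 and 11.0 to 74.6, 37.9 and 33.4 CPM, so that the pools were level before the cold and apart after it (difference of responses -1.57 ± 0.30). GF12460, at 99.1, 61.3 and 55.0 CPM in the FastBKK cold libraries against 203, 206 and 174 CPM in the SlowBKK ones, was alike in shape, with a difference of -1.17 ± 0.25 (edgeR adjusted p = 0.0468).

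In GF24014, GF16872 and GF12460 the highest FastBKK cold value was that of replicate 1. GF14042 and GF17809 rose in both pools, by 1.30 and 1.42 in FastBKK and by 2.97 and 2.88 in SlowBKK. GF18908, GF16301 and GF10397 did so with smaller responses, by 0.85, 0.63 and 0.62 in FastBKK and by 1.79, 1.46 and 1.37 in SlowBKK. GF15164 rose by 0.92 in FastBKK and 2.56 in SlowBKK at low level, with 6.57, 4.88 and 5.49 CPM and 11.2, 10.3 and 8.91 CPM in the cold libraries.

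GF15164 is 1 of 4 called genes whose mean hindgut level was at least 10 times their tubule mean, the others being GF14540, GF18437 and GF10479. The mean hindgut level of GF15164 was 106 CPM. The summed hindgut-gene level rose with cold in SlowBKK, as given above, and its part in these 4 results was not tested. GF14540 had a difference of -2.82 ± 0.54, GF18437 of -1.99 ± 0.36 and GF10479 of 3.90 ± 0.78.

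**Figure D2:**
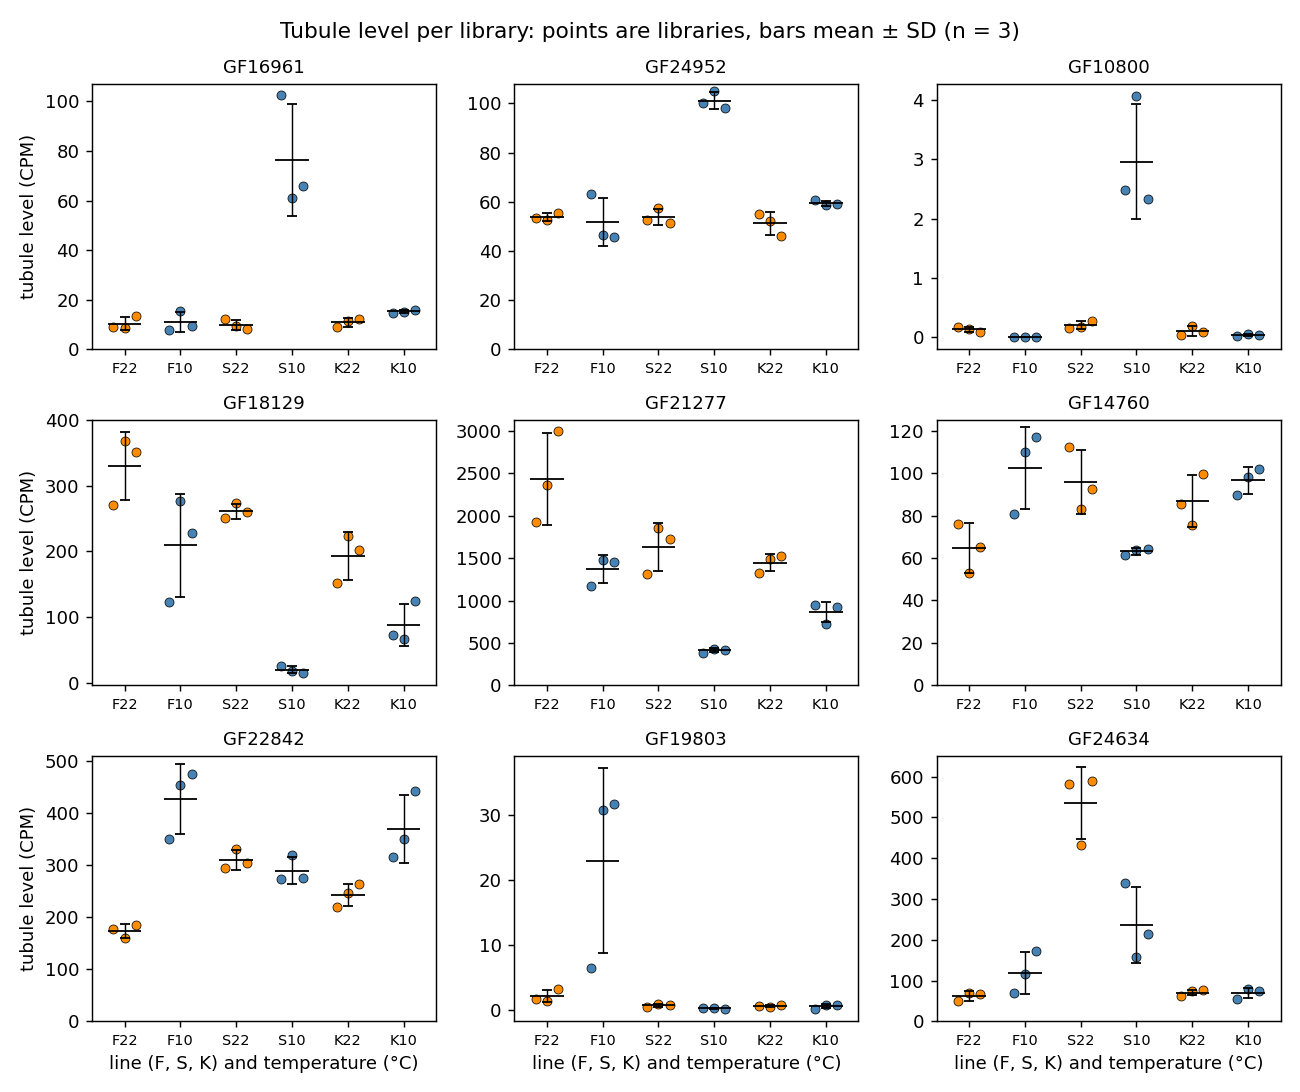
Tubule level in CPM (linear axes) of 9 called genes in each library of FastBKK (F), SlowBKK (S) and KATH (K) at 22 °C (orange) and after 10 °C (blue), with bars for mean ± SD of 3 libraries. GF16961, GF24952 and GF10800 stand out in the SlowBKK cold libraries, GF18129 and GF21277 are lowest there, and GF19803 is highest in the FastBKK cold libraries.

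The set of 15 genes that fell more in SlowBKK had a median response of -1.59 in SlowBKK (range -3.69 to -0.40) and of -0.48 in FastBKK (range -1.42 to 1.04). GF18129 (FBgn0095147, scaffold_13340, 1237 bases) changed most among those with at least 5 CPM. It was at 251, 273 and 259 CPM in SlowBKK controls and at 26.3, 18.7 and 15.5 CPM in the cold. FastBKK held 271, 368 and 351 CPM at 22 °C and 123, 276 and 228 CPM after the cold. The SlowBKK cold libraries lay below all others, while the FastBKK groups overlapped, with cold replicate 1 the lowest of FastBKK. The difference of responses was 3.03 ± 0.41 (edgeR adjusted p = 0.00716), and it was called in all 12 fits without 1 library.

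GF19400 fell in SlowBKK from 489, 573 and 502 CPM to 230.5, 273 and 280.0 CPM. Its FastBKK libraries overlapped, at 392, 365 and 386 CPM before and 349.9, 459.7 and 442 CPM after the cold. The responses differed by 1.13 ± 0.20 (edgeR adjusted p = 0.0270). GF21277 was abundant in all groups, at 1926, 2358 and 3003 CPM in FastBKK controls and 1177, 1476 and 1458 CPM in its cold libraries. In SlowBKK it fell from 1312, 1851 and 1725 to 386, 434 and 421 CPM, and the difference was 1.15 ± 0.23 (edgeR adjusted p = 0.0371).

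Some genes of this set began higher in SlowBKK and ended near the FastBKK level. GF22215 was at 29.7, 25.2 and 25.5 CPM in SlowBKK controls and 11.3, 10.3 and 14.7 CPM in FastBKK controls. The cold values were 4.29, 3.71 and 3.74 CPM and 4.05, 3.84 and 5.65 CPM. Thus the pools were apart before the cold and overlapped after it, and the difference of responses was 1.35 ± 0.23 (edgeR adjusted p = 0.0270). GF11950 fell by 1.88 in SlowBKK on the log2 scale, with cold values of 33.9, 30.4 and 31.4 CPM, and GF27238 by 1.77, with 11.4, 16.0 and 14.7 CPM. In FastBKK their responses of -0.50 and -0.33 had adjusted p values of 0.0408 and 0.162 in edgeR.

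In 6 genes the rise was larger in FastBKK or was called there alone, with a median response of 2.37 in FastBKK and 0.26 in SlowBKK. GF22842 was called in every fit that left out 1 of the 12 libraries. It stood at 179, 159.7 and 185 CPM in FastBKK controls and at 351, 455 and 476 CPM in the cold. SlowBKK held 295, 332 and 304 CPM and then 274, 321 and 275 CPM. FastBKK thus started below SlowBKK and ended above it, and the SlowBKK groups overlapped. The difference of responses was 1.39 ± 0.19 (edgeR adjusted p = 0.00716).

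GF19803 had the largest positive difference, 4.79 ± 0.79 (edgeR adjusted p = 0.0259). Its FastBKK level was 1.73, 1.52 and 3.25 CPM in controls and 6.57, 30.8 and 31.6 CPM in the cold. SlowBKK held 0.564, 1.02 and 0.810 CPM and 0.405, 0.337 and 0.167 CPM. FastBKK cold replicate 1 was far below the other FastBKK cold libraries but above every control.

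GF11462 and GF12635 rose in both pools, from a lower start in FastBKK. GF11462 was at 36.3, 28.1 and 24.9 CPM in FastBKK controls and 71.5, 69.2 and 58.5 CPM in SlowBKK controls, and reached 180.4, 341 and 242 CPM and 138, 190.4 and 197 CPM in the cold. GF12635 was at 20.7, 21.1 and 21.6 CPM in FastBKK controls and 137, 126 and 97.1 CPM in SlowBKK controls. After the cold it was at 138, 208 and 176 CPM and 225, 165 and 377 CPM, where the pools overlapped. The differences of responses were 1.70 ± 0.35 and 1.96 ± 0.40 (edgeR adjusted p = 0.0399 and 0.0389). GF18272 rose by 1.62 in FastBKK and 0.62 in SlowBKK.

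The 8 genes with the larger fall in FastBKK, or a fall called there alone, had a median response of -1.65 in FastBKK and -0.16 in SlowBKK. GF23806 fell in FastBKK from 10.0, 15.4 and 13.5 CPM to 5.20, 3.55 and 3.26 CPM, against 5.75, 5.64 and 7.24 CPM and 5.53, 7.66 and 4.89 CPM in SlowBKK. FastBKK came down from a higher start to values that overlapped those of SlowBKK, and the difference of responses was -1.65 ± 0.32 (edgeR adjusted p = 0.0340). GF15108 fell from 38.1, 21.4 and 29.9 to 11.4, 8.11 and 9.70 CPM in FastBKK, and its SlowBKK libraries held 17.5, 20.1 and 16.9 CPM at 22 °C and 16.1, 18.1 and 15.8 CPM after the cold. Its FastBKK cold values were below all SlowBKK ones, and the difference of responses was -1.49 ± 0.30. The other 6 of these genes were GF15748, GF12028, GF17174, GF13114, GF25191 and GF13391, with differences between -3.12 and -0.70.

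Among the 9 genes called in both pools with opposite signs, GF14760 and GF24634 rose in FastBKK and fell in SlowBKK, and the other 7 did the reverse. GF14760 went from 76.2, 52.9 and 65.1 CPM to 80.6, 110.0 and 117 CPM in FastBKK. In SlowBKK it went from 112, 83.0 and 92.3 CPM to 61.4, 63.6 and 64.4 CPM. The lines crossed, with SlowBKK above FastBKK before the cold and below it after, and the difference of responses was 1.26 ± 0.22 (edgeR adjusted p = 0.0270).

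GF24634 was far higher in SlowBKK at 22 °C, with 581, 434 and 589.8 CPM against 49.1, 69.6 and 67.6 CPM. After the cold SlowBKK held 339.7, 158 and 213 CPM and FastBKK 68.9, 115 and 172 CPM. The gap narrowed from both sides, and the cold groups then overlapped (difference of responses 2.11 ± 0.43, edgeR adjusted p = 0.0371). GF24192 moved little but evenly. It fell from 15.8, 14.1 and 17.7 to 13.1, 12.3 and 12.6 CPM in FastBKK and rose from 12.01, 11.9 and 11.9 to 15.0, 15.2 and 15.4 CPM in SlowBKK. Its replicates were tight, and a difference of -0.67 ± 0.11 was called (edgeR adjusted p = 0.0259).

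GF10800 had the smallest adjusted p of all (0.00659, edgeR) at very low level. SlowBKK held 0.161, 0.180 and 0.279 CPM in controls and 2.48, 4.07 and 2.34 CPM in the cold. FastBKK controls held 3 to 6 counts a library and its cold libraries 0 counts each. The mean FastBKK control level was 1.64 times the level of a floor of 3 counts per library in the cold. The control counts reach down to that floor and their counting error is not included, so this is no firm bound. The fitted difference of -9.15 (SE 1.00) depends on how 0 counts are handled and is no bound.

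At which temperature the pools differed was read from the same fit. At 22 °C, 28 of the 68 genes differed in level between FastBKK and SlowBKK, beside 7.00% of all tested genes. In the cold 53 did, beside 11.9% of all tested. Both contrasts enter the tested difference, so nothing is read from the shares. By test, 40 genes differed in the cold alone (10 with a positive and 30 with a negative difference of responses), 15 at 22 °C alone, 10 at both temperatures with opposite signs and 3 at both with 1 sign. GF16961 belonged to the first kind (log2 level difference 0.07 at 22 °C and -2.80 in the cold), and GF12635 to the second (-2.51 and -0.55). GF22842 belonged to the third, with -0.83 at 22 °C and 0.56 in the cold.

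All cold libraries lay beyond all control libraries in SlowBKK for 61 of the 68 genes, beside 62.3% of tested genes, and in FastBKK for 51, beside 45.8%. In KATH this was so for 52 genes, beside 56.7%. The KATH libraries took no part in choosing the genes except through the shared estimate of spread, the shared scaling and the shared filter on low counts. That part was not small, since without the KATH libraries 13 genes were called, 11 of them shared with the 68. KATH was called higher in the cold for 28 of the 68 genes, lower for 19 and not called for 21, where 46.4% of all tested genes were called in KATH, 23.1% higher and 23.4% lower. Its median absolute response over the 68 genes was 0.67, and over all tested genes 0.51.

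For the 45 genes with a negative difference, the median response was 0.39 in KATH, 0.15 in FastBKK and 1.21 in SlowBKK. For the 23 with a positive difference it was -0.26 in KATH, -0.02 in FastBKK and -1.36 in SlowBKK. The KATH response was nearer to that of FastBKK than to that of SlowBKK in 36 of the 45 and 18 of the 23 genes. The FastBKK and SlowBKK values here are those that chose the genes, and the share over all tested genes is not given. This count is therefore a description, and no likeness of KATH and FastBKK is read from it.

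Single genes show how KATH compared. In KATH, GF16961 held 9.04, 11.3 and 12.4 CPM in controls and 14.8, 15.1 and 15.9 CPM in the cold, a response of 0.48 ± 0.26 (edgeR adjusted p = 0.145). GF18129 fell in KATH from 153, 223 and 202 to 73.3, 66.6 and 125 CPM, by 1.13 on the log2 scale. GF22842 rose from 220.4, 246 and 264 to 316, 351 and 443 CPM, by 0.60. For these genes the KATH response lay between those of FastBKK and SlowBKK.

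In KATH GF24952 went from 55.2, 52.1 and 46.2 CPM to 60.6, 58.7 and 59.0 CPM, and GF24634 from 62.8, 73.7 and 75.9 CPM to 55.0, 79.6 and 74.4 CPM, neither past the test (edgeR adjusted p = 0.107 and 0.957). GF24634 was far below its SlowBKK level in KATH at both temperatures. GF19803 held 0.689, 0.558 and 0.823 CPM and 0.296, 0.805 and 0.836 CPM in KATH, within the range of the SlowBKK libraries and below all FastBKK ones. GF10800 held at most 2 counts in any KATH cold library. KATH cold replicate 4 was high in hindgut genes, with a sum of 1509 CPM. Their median was 1.40% of the hindgut level there, against 0.775% in FastBKK cold replicate 1.

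**Figure D3:**
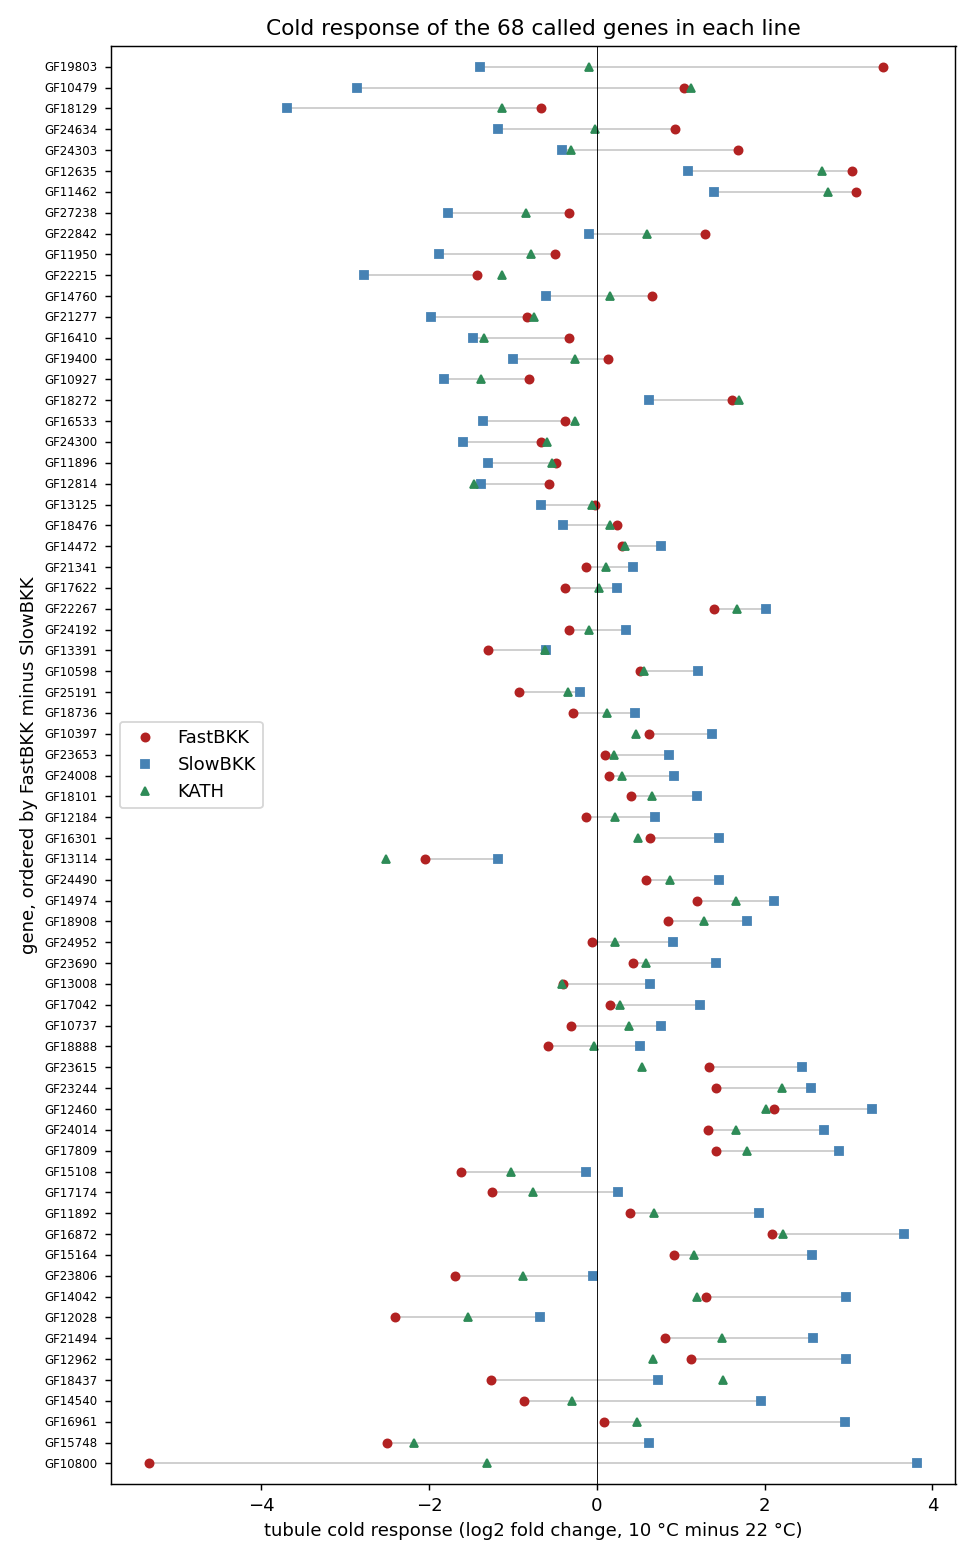
Tubule cold response (log2 fold change, x axis) of the 68 called genes in FastBKK, SlowBKK and KATH, ordered by the FastBKK minus SlowBKK difference. Grey lines join the FastBKK and SlowBKK values, and KATH was nearer to FastBKK in 54 of the 68 genes. That count is a description, since the FastBKK and SlowBKK values chose the genes.

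The same difference of responses was then looked up in the hindgut and the body, whose libraries took no part in choosing the tubule genes. Many hindgut libraries carry the replicate numbers of tubule libraries. If both organs came from the same flies, a shared sign would not be independent, and this was not tested. The hindgut had 65 calls among 11323 genes (0.574%), 46 positive and 19 negative (30 and 22 with upper quartile scaling). All 68 tubule genes were tested there, and 56 of them (82.4%) had the same sign as in the tubule, beside 61.2% of the 9841 genes tested in both tissues. Only GF18888 was called in both, which is 1.47% of the tubule calls and 1.54% of the hindgut calls. GF18888 fell in the tubule from 14.2, 17.6 and 16.5 to 11.6, 10.3 and 10.3 CPM in FastBKK and rose from 18.6, 18.2 and 13.6 to 27.9, 21.0 and 23.2 CPM in SlowBKK, a difference of -1.10 ± 0.21. In the hindgut it held 23.2, 21.7 and 26.1 CPM and then 24.0, 18.9 and 20.4 CPM in FastBKK, and 20.8, 20.7 and 18.7 CPM and then 31.3, 34.1 and 35.7 CPM in SlowBKK. That difference was -0.92 ± 0.16 (edgeR adjusted p = 0.0268), of the same sign and similar size. GF22842, at 1.12 ± 0.24 in the hindgut, was next to the threshold (edgeR adjusted p = 0.0541).

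One hindgut library stood apart. In FastBKK control hindgut replicate 3 the body-restricted genes were at a median of 5.31% of their body level, against at most 0.399% in the other hindgut libraries. Without it 27 genes were called in the hindgut, and 58 of the 68 tubule genes (85.3%) had the same sign in both organs, beside 60.4% of all genes. GF18888 then had a hindgut difference of -0.97 (edgeR adjusted p = 0.0371) and was again the only shared call, while GF22842 had 1.04 (edgeR adjusted p = 0.115).

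In the body 432 of 13435 tested genes (3.22%) were called, 189 positive and 243 negative (153 and 349 with upper quartile scaling). Body libraries were made from 10 flies with another extraction kit. Of the 68 tubule genes 52 (76.5%) had the same sign in the body, beside 56.5% of the 10081 genes tested in both. Called in both were 9 genes, each with the same sign in body and tubule, which is 13.2% of the tubule calls and 2.08% of the body calls. The share of all tubule-tested genes called in the body was 3.55%.

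The 9 shared genes were GF14042, GF17809, GF24014, GF18908 and GF24008 on the negative side and GF18272, GF19400, GF22215 and GF11950 on the positive side. Each of the first 5 rose more in SlowBKK in the tubule. GF24014 had a difference of -0.63 ± 0.14 in the body (edgeR adjusted p = 0.0242), with 65.6, 69.6 and 65.5 CPM and then 80.1, 78.2 and 98.4 CPM in FastBKK and 72.9, 78.0 and 63.0 CPM and then 135, 134 and 154 CPM in SlowBKK. GF14042 had -0.90 ± 0.22 and GF22215 0.58 ± 0.15 in the body, against -1.67 ± 0.33 and 1.35 ± 0.23 in the tubule. The body values were smaller in size than the tubule values for all 9 genes. The genes were chosen by their tubule values, which favours large ones, and tubule and body were not tested against each other. Nothing is therefore read from the sizes. Tubules are part of the whole fly, and whether the body samples held tubules is not stated in the labels.

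**Figure D4:**
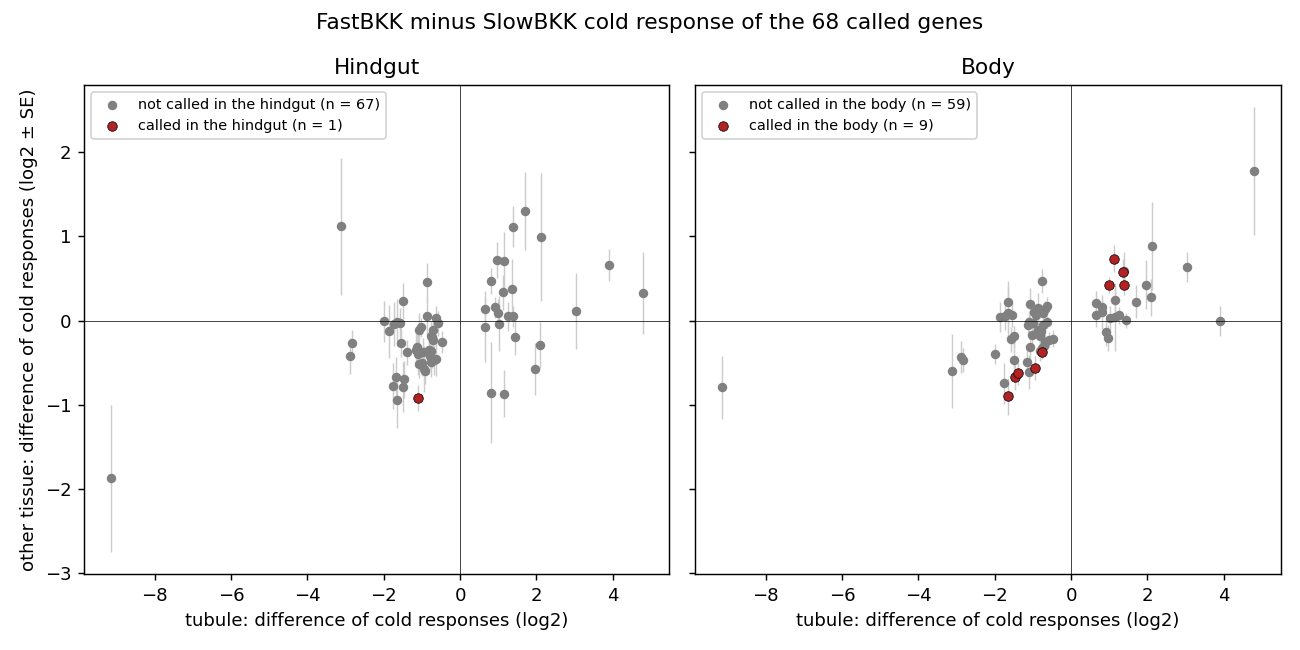
FastBKK minus SlowBKK difference of cold responses (log2) of the 68 called tubule genes in the tubule (x axis) and in the hindgut or body (y axis, ± SE). Red points were called in the other tissue as well, 1 in the hindgut and 9 in the body, and all of these have the same sign in both tissues.

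Whether the tubule difference itself departed from that of the hindgut was tested in a fit of both organs. It treated all libraries as independent, although same-numbered hindgut and tubule libraries may come from the same flies. Only 6 of 11942 genes (0.0502%) were called, with 1231 at an unadjusted p under 0.05, and 2 of the 6 were among the 68. GF16961 had a tubule minus hindgut difference of -2.48 ± 0.45 (edgeR adjusted p = 0.0372). Its hindgut level was 33.3, 33.8 and 26.6 CPM in SlowBKK controls and 40.9, 58.7 and 48.7 CPM in SlowBKK cold libraries, and 23.2, 19.6 and 21.8 CPM and 25.7, 29.5 and 21.3 CPM in FastBKK. By this test the pools differed more in the tubule than in the hindgut. GF21277 had a tubule minus hindgut difference of 2.0 ± 0.38 (edgeR adjusted p = 0.0386), with 1.15 in the tubule and -0.87 in the hindgut. For the other 66 genes a tissue difference was not detected, which does not show that the tissues were alike. Without FastBKK control hindgut replicate 3 the values were -2.39 for GF16961 and 2.15 for GF21277, and neither was called (edgeR adjusted p = 0.0750 and 0.0711). Without FastBKK cold tubule replicate 1 the count of 6 rose to 52, and without FastBKK control tubule replicate 4 or SlowBKK control tubule replicate 2 it was 1. It was 0 without any 1 of FastBKK cold hindgut replicates 3 and 4, FastBKK control hindgut replicates 1, 3 and 4, SlowBKK cold hindgut replicate 1 and SlowBKK control hindgut replicate 1 (edgeR, with 955 to 1473 genes at an unadjusted p under 0.05).

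The number of called genes rested on single libraries. Without FastBKK cold replicate 1, the library with the highest summed hindgut-gene level, 364 genes were called (155 positive, 209 negative), among them all 68. Without FastBKK cold replicate 3 or 4 only 4 were called each time, and without SlowBKK cold replicates 2, 3 and 4 the counts were 5, 6 and 12. Leaving out FastBKK control replicates 2, 3 and 4 gave 37, 68 and 15 calls, 39 of the 68 without replicate 3 being shared with the full set. Leaving out SlowBKK control replicates 1, 2 and 5 gave 18, 5 and 26. Without KATH cold replicates 1 and 3, which enter through the shared spread, scaling and filter, 32 and 39 were called. All 68 genes kept their sign in each of the 12 fits that left out a FastBKK or SlowBKK library, and GF10800, GF16961, GF18129 and GF22842 were called in all of them. Those called in 1 to 3 of these fits numbered 14, 20 and 14. The kept signs were likely beforehand, since each fit used most of the libraries that chose the genes.

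FastBKK cold replicate 1 was the nearest of the 3 FastBKK cold libraries to the SlowBKK cold mean in 47 of the 68 called genes, replicate 3 in 11 and replicate 4 in 10. Over all tested genes the shares were 39.9%, 27.8% and 32.2%. Without it the difference of GF24014 went from -1.39 to -1.62, that of GF16872 from -1.57 to -1.98 and that of GF18129 from 3.03 to 3.34. GF22842 moved from 1.39 to 1.55. Other differences became smaller in size, that of GF16961 from -2.87 to -2.65 and that of GF18437 from -1.99 to -1.83. How many genes moved each way was not counted. What part the hindgut transcripts of this library played was not tested.

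**Figure D5:**
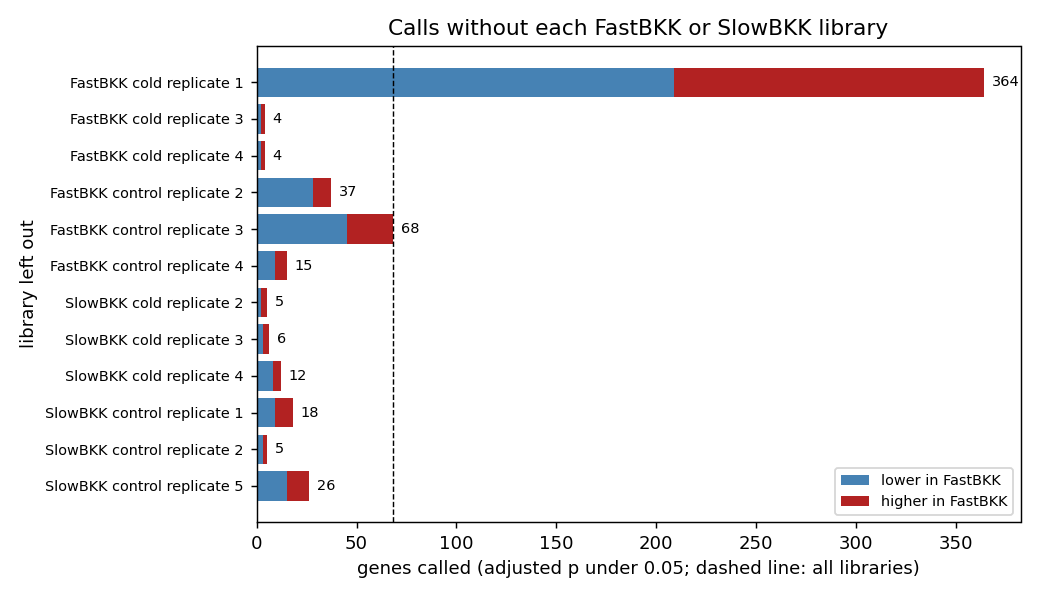
Number of genes called for a different cold response (adjusted p under 0.05, x axis from 0) when each FastBKK or SlowBKK tubule library is left out, split by the sign of FastBKK minus SlowBKK. The dashed line marks the 68 calls with all libraries, and the counts run from 4 to 364.

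The called genes were spread over the larger scaffolds. Scaffold_13337 held 19 of the 68 and 1886 of the tested genes, scaffold_13340 held 17 of 68 and 2041 tested, scaffold_13266 held 16 and 2033, and scaffold_12916 held 8 and 1353. The median gene length was 1960 bases for the 23 genes with a positive difference and 2075 bases for the 45 with a negative one, against 1711.5 bases over all tested genes. Over all tested genes the difference of responses and gene length had a Spearman rho of 0.069, where genes do not count as independent replicates.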

How the data were processed

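Per the file headers, the authors deposited raw read counts as whole numbers for 14365 genes in 54 libraries, with a length for each gene, another deposited column that was used only for description and for a length-trend alternative. The submitters' processing notes name FastQC 0.11.9. The aligner, counter, genome build and strand setting are not given in the sources used here, so reads of overlapping or near-identical genes may be split unevenly. Per the labels' protocols, libraries were poly-A enriched and tubule RNA was extracted with an RNeasy kit.

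The 18 tubule libraries, of 32.9 to 40.0 M counts in the 12 compared, were fitted with edgeR 4.0.16 in R 4.3.3 (filterByExpr, TMM, 1 coefficient per pool and treatment, two-sided quasi-likelihood F test, Benjamini-Hochberg over all tested genes). Calls have an adjusted p under 0.05. CPM values are TMM-scaled, and SE is the standard error of a log2 value. Hindgut and body were fitted the same way, and 1 fit of both organs tested the tissue difference. Counts of 3 per library or fewer were treated as the floor, which covers counting error only. Genes used to follow hindgut or body transcripts have a mean of at least 50 CPM in that tissue and a median under 1 CPM in the tubule (for body genes, also in the hindgut).

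Named genes are those with at least 5 CPM that had the 10 highest or 10 lowest differences or the 10 smallest p values, those also called in hindgut or body, and those called without each library in turn. Called genes outside this rule that the text names were chosen after their values were seen. The comparison and lists were chosen with earlier results of these data known. Planned gene lists by function could not be used, since 0 identifiers matched. The labels do not say whether replicates are separate fly cohorts, so p-values measure the spread between these samples. Replicates differed by more than sampling noise (chi-square per degree of freedom of at least 40.0 over 18 pairs). Alternatives included other scalings, filters, tools (limma 3.58.1, DESeq2 1.42.0), sets of libraries and leaving out each library, and the fit was tested on simulated data.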

Additional observations from a re-analysis of the deposited data

Results flagged for a closer look

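A difference between the responses of FastBKK and SlowBKK, tested as an interaction in edgeR, is what marked these results: 68 tubule genes and, among them, the 30 named ones. Negative differences (log2, FastBKK minus SlowBKK) were -9.15 for GF10800, where 0 counts in FastBKK make the size uncertain, and -2.87 for GF16961. GF14042 had -1.67, GF23806 -1.65, GF15164 -1.65, GF16872 -1.57, GF11892 -1.55, GF15108 -1.49 and GF17809 -1.47. GF24014 had -1.39, GF12460 -1.17, GF18888 -1.10, GF24952 -0.96, GF18908 -0.93, GF16301 -0.82, GF24008 -0.77, GF10397 -0.75 and GF24192 -0.67.

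Positive differences were 1.00 for GF18272, 1.13 for GF19400, 1.26 for GF14760, 1.35 for GF22215, 1.38 for GF11950 and 1.39 for GF22842. GF27238 had 1.43, GF11462 1.70, GF12635 1.96, GF24634 2.11, GF18129 3.03 and GF19803 4.79.

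In the main fit of both organs, the tubule and the hindgut differed in this contrast for 6 genes (tubule minus hindgut, log2). The count was 0 with limma-voom (725 genes at an unadjusted p under 0.05). It was also 0 with replicate number as a block (edgeR, 1101 genes), and 0 to 52 when 1 library was left out. Of the 6 genes, GF16961 had -2.48 and GF21277 2.0, neither called without FastBKK control hindgut replicate 3. The other 4 were not called in the tubule. GF14544 had -4.92, with -3.22 in the tubule and 1.68 in the hindgut. GF17850 had -4.91, with -1.39 in the tubule and 3.51 in the hindgut. GF17077 had -3.21, with -1.06 and 2.13, and GF24004 had 1.65, with 0.35 and -1.33. The hindgut values of GF17850, GF17077 and GF24004 were called there (edgeR adjusted p = 0.0458, 0.00447 and 0.0248).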

How the results depend on the processing

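The count of 68 was 60 with DESeq2 size factors, 74 with upper quartile scaling, 74 with a robust fit, 61 with limma-voom and 78 with the newer quasi-likelihood fit of edgeR (added after seeing the data; the planned older fit is the default of the version used). It was 41 without a filter on low counts, 112 with a mean of at least 10 CPM, 413 with DESeq2, 40 with a fold over 2, 13 with only FastBKK and SlowBKK libraries, 640 with all 54 libraries in 1 fit and 154 with the length trend removed. Without both libraries highest in hindgut genes (FastBKK cold replicate 1 and KATH cold replicate 4, added after seeing the data) it was 439. Leaving out 1 library gave 4 to 364, and 4 to 417 on the genes kept with all 18 libraries. The causes were not tested.

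Replicate numbers are shared between groups, and the main fits did not pair the samples by them. In FastBKK and SlowBKK tubules, deviations of same-numbered libraries had correlations of -0.26 to 0.31 over 10 pairs. So few pairs cannot exclude a pairing, and the check was not made across organs. Whether same-numbered hindgut and tubule libraries came from the same flies was not tested. The replicate block gave 4 tubule calls (3 shared), 13 in the hindgut, 91 in the body, 0 for tubule minus hindgut (edgeR, 1101 at an unadjusted p under 0.05), 240 for the pools at 22 °C and 764 in the cold.

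With DESeq2 the hindgut had 434 calls, the body 991, tubule minus hindgut 140 and the pools at 22 °C 1200. With limma-voom the hindgut had 41 and tubule minus hindgut 0 (725 at an unadjusted p under 0.05). A fold over 2 left 1508 genes for the FastBKK response, 1903 for SlowBKK, 311 for the pools at 22 °C, 417 in the cold and 125 in the body. Only FastBKK and SlowBKK libraries gave 29 in the hindgut, 666 in the body and 12 for tubule minus hindgut. All 54 libraries in 1 fit gave 1544 at 22 °C, 2291 in the cold, 242 in the hindgut, 0 in the body (edgeR, 945 at an unadjusted p under 0.05) and 62 for tubule minus hindgut.

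Leaving out 1 library gave 3625 to 4296 for the FastBKK response, 3871 to 4892 for SlowBKK, 323 to 809 for the pools at 22 °C, 642 to 1454 in the cold, 6 to 96 in the hindgut, 112 to 438 in the body and 0 to 52 for tubule minus hindgut. KATH libraries were left out in the tubule fit alone. Over 1316 alternative values of the 30 named genes, 776 were called in the same direction, 540 kept the direction without a call and 0 reversed. The named genes were chosen from the same libraries that the alternatives refit, and the fold alternative reuses the main values. The lack of reversals was thus likely beforehand and is a description.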
